A study of Mus musculus with 8 samples.

Results

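Tigit, Cd226, Cd96, Lag3, Havcr2, Cd160 and Cd200 are 7 genes of the immunoglobulin superfamily that set how strongly T cells and natural killer (NK) cells respond. They were chosen by gene symbol, and all 7 were found among the 24016 genes of the deposited table. RNA sequencing had been done on CD4+ T cells of mouse spleen, sorted by whether a fluorescent reporter of Foxp3 was on. Foxp3 encodes the factor that defines regulatory T (Treg) cells. The 8 libraries formed 4 groups of 2, replicates A and B. Monoclonal Treg (reporter-positive) and monoclonal non-Treg (reporter-negative) cells came from the strain NOD.TCRab.FoxP3GFP.Rag-/-, in which all T cells carry the same αβ receptor and the Rag recombinase is missing. Polyclonal Treg and polyclonal non-Treg cells came from NOD.FoxP3GFP mice, with a diverse receptor repertoire. All 4 groups carried the Foxp3 reporter on the NOD background, which develops autoimmune diabetes. Receptor, Rag genotype and strain changed together and cannot be told apart, and the monoclonal mice represent 1 receptor. The labels give no age, and do not say whether replicates A and B are separate animals. A p-value here therefore weighs differences against the spread of these samples, and that spread may be technical.

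TIGIT, CD96 and CD226 share ligands of the nectin and nectin-like family, chiefly CD155 (the product of Pvr). TIGIT inhibits and CD226 costimulates, so Cd226 is the activating arm of the group rather than a co-inhibitory receptor, while CD96 has been described with both actions. LAG-3 binds MHC class II, TIM-3 (the product of Havcr2) binds galectin-9 and other ligands, and CD160 binds HVEM (the product of Tnfrsf14), which BTLA and LIGHT also bind. CD200 is itself a ligand, which restrains cells that carry the receptor CD200R1. In Treg cells TIGIT, LAG-3 and TIM-3 are known as markers of activated or effector-type cells. TIM-3 is also carried by dendritic cells and macrophages, and TIGIT, CD226, CD96 and CD160 by NK cells.

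Depth ran from 14076330 to 19722321 reads per library, and a count of 0 allows up to 3 reads, or 0.152 to 0.213 CPM, counts per 1000000 reads assigned to genes. Foxp3 checked the labels, with 2709 and 2667 CPM in monoclonal Treg against 405 and 319 CPM in monoclonal non-Treg libraries, and 2349 and 2281 CPM in polyclonal Treg against 81.9 and 84.2 CPM in polyclonal non-Treg libraries. The 6 T cell identity markers were above 0 in all 8 libraries and summed to between 2684 and 3976 CPM. Markers of other cells were present as well. The 9 dendritic cell markers summed to 425 and 360 CPM in libraries of monoclonal Treg cells, 1628 and 1861 CPM in monoclonal non-Treg, 19.5 and 15.9 CPM in polyclonal Treg, and 44.2 and 39.2 CPM in polyclonal non-Treg libraries. The 8 macrophage and monocyte markers summed to 161 to 481 CPM in the monoclonal and 15.8 to 22.9 CPM in the polyclonal libraries. The 11 NK cell markers summed to 68.0 to 85.5 CPM in the monoclonal and 22.9 to 58.4 CPM in the polyclonal libraries. The 7 B cell markers, for cells that need Rag to develop, summed to 45.0 to 267 CPM in the monoclonal and 29.0 to 67.3 CPM in the polyclonal libraries, and Cd22 alone gave most of each sum.

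On the mm9 assembly used by the deposited table, 3 of the 7 genes lie on the minus strand of chromosome 16: Tigit (NM_001146325, chr16:43648974-43664297), Cd200 (NM_010818, chr16:45382248-45409166) and Cd96 (NM_032465, chr16:46035770-46120361). Lag3 (NM_008479) lies on the minus strand at chr6:124854377-124861723, and Cd160 (NM_001163496) on the minus strand at chr3:96602686-96633274. Havcr2 (NM_134250) lies on the plus strand at chr11:46268433-46294756. No other gene of the table overlapped any of the 7 genes, so none is shared with an antisense neighbour listed there.

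Promoter stretches were read for 5 of the genes from RefSeq (GRCm38.p6), as the 250 bases before the start. Tigit and Cd200 are shown because both were higher in Treg than in non-Treg libraries of each kind of mouse, and Havcr2 because it was lower in Treg than in non-Treg libraries of monoclonal mice. Capitals mark matches, on either strand, to AP-1 (TGANTCA), RUNX (TGTGGT), NFAT (GGAAA) and FOX (GTAAACA) motifs, which do not overlap each other here. The stretches are chr16:43664185-43664434 on the minus strand for Tigit, chr16:45409054-45409303 on the minus strand for Cd200, and chr11:46454681-46454930 on the plus strand for Havcr2.
Tigit: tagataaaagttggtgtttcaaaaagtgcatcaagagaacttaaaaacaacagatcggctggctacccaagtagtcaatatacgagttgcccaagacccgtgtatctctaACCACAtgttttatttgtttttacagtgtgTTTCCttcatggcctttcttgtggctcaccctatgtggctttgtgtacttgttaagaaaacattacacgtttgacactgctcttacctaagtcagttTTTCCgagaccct
Cd200: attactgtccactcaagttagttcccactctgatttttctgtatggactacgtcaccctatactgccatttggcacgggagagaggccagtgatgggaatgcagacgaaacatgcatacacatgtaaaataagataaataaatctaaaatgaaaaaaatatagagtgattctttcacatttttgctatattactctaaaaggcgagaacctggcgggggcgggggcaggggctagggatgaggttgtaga
Havcr2: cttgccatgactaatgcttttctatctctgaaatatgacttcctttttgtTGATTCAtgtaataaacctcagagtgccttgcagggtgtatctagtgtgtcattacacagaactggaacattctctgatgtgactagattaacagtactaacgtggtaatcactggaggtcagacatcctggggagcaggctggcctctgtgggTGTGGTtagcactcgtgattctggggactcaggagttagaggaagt
Tigit held 3 matches, 1 RUNX (ACCACA) and 2 NFAT (TTTCC), Havcr2 held 1 AP-1 (TGATTCA) and 1 RUNX (TGTGGT), and Cd200 held none of these letters in its window. Of 32851 RefSeq promoter stretches, 6.75% held the AP-1 motif, 14.0% RUNX, 55.6% NFAT and 3.17% FOX, so the NFAT letters in particular are common. These matches are descriptions of sequence and were not related to the expression values.

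All 7 genes passed the filter of at least 1 CPM in 2 libraries. Differences below are log2 fold changes of CPM + 1 ± SE from limma, adjusted over the 12881 genes tested, and a gene was called at an adjusted p under 0.05. In monoclonal mice 6 of the 7 were called between Treg and non-Treg libraries, 3 higher and 3 lower, against 24.4% of all tested genes (10.8% higher and 13.6% lower). In polyclonal mice 3 of the 7 were called, all higher, against 7.90% of all tested genes (4.63% higher and 3.28% lower). These RNA measurements come from bulk samples, in which fewer cells of a type and less RNA per cell cannot be told apart.

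**Figure D1:**
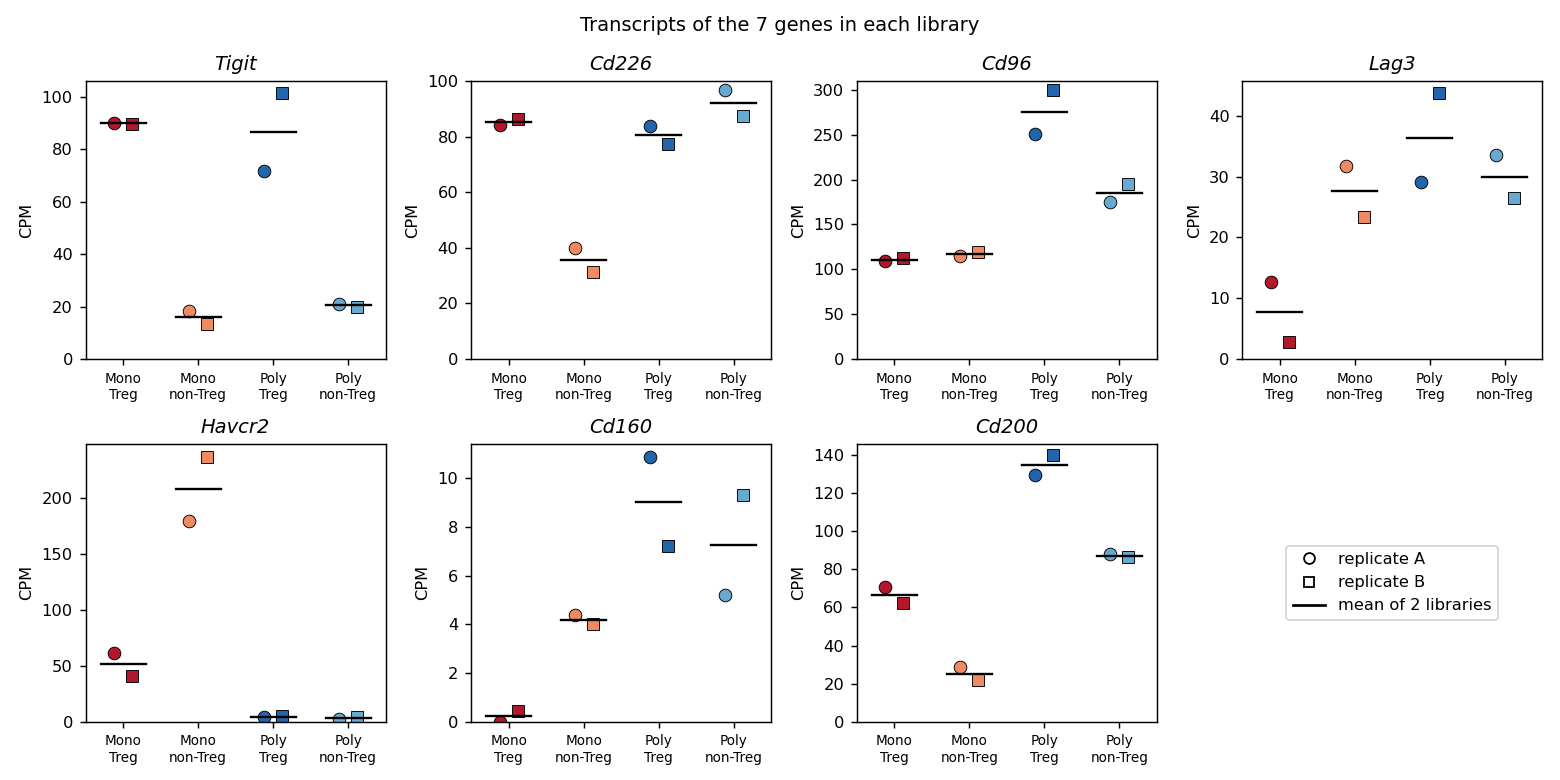
CPM of the 7 genes in each library (vertical axes, linear, from 0) by group (horizontal axis), with circles for replicate A, squares for replicate B and a line at the mean of 2 libraries. Tigit is high in both Treg groups, Havcr2 reaches 180 and 237 CPM in monoclonal non-Treg libraries, and Lag3 and Cd160 are lowest in monoclonal Treg libraries.

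Tigit, the inhibitory receptor of the nectin group, was higher in Treg cells of both kinds of mice, and was called under all 14 alternatives tried for each. It measured 90.2 and 89.7 CPM in monoclonal Treg against 18.5 and 13.5 CPM in monoclonal non-Treg libraries. In polyclonal mice it measured 71.8 and 102 CPM in Treg against 20.9 and 19.9 CPM in non-Treg libraries. All 4 Treg libraries stood above all 4 non-Treg libraries. Tigit was 5.40-fold higher in monoclonal Treg cells on the CPM + 1 scale (log2 2.43 ± 0.21, limma adjusted p = 2.88e-06) and 4.03-fold higher in polyclonal Treg cells (2.01 ± 0.21, adjusted p = 3.23e-05). The difference of these Treg effects was 0.42 ± 0.30 (adjusted p = 0.439), with a 95% interval of -0.23 to 1.07 that leaves room for a larger effect on either side. Between the kinds of mice, Tigit differed by 0.07 in Treg cells (adjusted p = 0.841, 95% interval -0.39 to 0.53) and by -0.35 in non-Treg cells (adjusted p = 0.304, 95% interval -0.81 to 0.11), monoclonal minus polyclonal. Scaling to the T cell genes described with Cd226 turned the signs of these 3 uncalled differences, to -0.20, -0.04 and 0.16. From the highest mean down, the order was therefore monoclonal Treg, polyclonal Treg, polyclonal non-Treg and monoclonal non-Treg, and neither the upper pair nor the lower pair differed beyond the spread.

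Cd226, the activating counterpart of Tigit, stood apart through the monoclonal non-Treg libraries. Cd226 (NM_178687) lies on the plus strand at chr18:89366819-89439719 on mm9. It measured 84.4 and 86.2 CPM in monoclonal Treg against 39.9 and 31.4 CPM in monoclonal non-Treg libraries. In polyclonal mice it measured 84.0 and 77.3 CPM in Treg against 96.8 and 87.6 CPM in non-Treg libraries. The 2 monoclonal non-Treg libraries were below the other 6. Cd226 was higher in monoclonal Treg cells (1.24 ± 0.16, limma adjusted p = 8.66e-05), and in polyclonal mice the Treg effect was -0.19 ± 0.16 (adjusted p = 0.640, 95% interval -0.54 to 0.16). The Treg effects differed by 1.43 ± 0.23 (adjusted p = 0.00168), one of 5 members called in that difference (1 higher, 4 lower) against 9.20% of all tested genes (3.64% higher and 5.56% lower). The 2 Treg effects come from separate libraries, but the difference shares all of them, as the comparisons between mice do. Monoclonal non-Treg cells had less Cd226 than polyclonal ones (-1.35 ± 0.16, adjusted p = 2.35e-05), whereas Treg cells gave 0.08 (adjusted p = 0.763, 95% interval -0.27 to 0.43, and -0.03 with the scaling that follows). Scaling the libraries to the summed CPM of the T cell genes Cd3e, Cd3d and Cd3g moved the median gene's monoclonal Treg effect by -0.64 and gave Cd226 a Treg effect of 0.57 (adjusted p = 0.0637), or 1.22 above that scaling's median gene. With the same scaling the difference of Treg effects was 0.80 (adjusted p = 0.115), and the difference between non-Treg cells was -0.83 (adjusted p = 0.0203).

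Cd96, the third receptor of CD155, differed mainly between the kinds of mice. It measured 109 and 112 CPM in libraries of monoclonal Treg cells and 115 and 119 CPM in monoclonal non-Treg libraries, which gave a Treg effect of -0.08 ± 0.13 (limma adjusted p = 0.721, 95% interval -0.36 to 0.21). In polyclonal mice it measured 251 and 300 CPM in Treg against 175 and 195 CPM in non-Treg libraries. All 4 monoclonal libraries were below all 4 polyclonal ones. Monoclonal Treg cells had less Cd96 than polyclonal Treg cells (-1.30 ± 0.13, adjusted p = 6.78e-06), in a comparison where 5 members were called (1 higher, 4 lower) against 24.2% of all tested genes (12.1% higher and 12.1% lower). Monoclonal non-Treg cells also had less than polyclonal ones (-0.66 ± 0.13, adjusted p = 0.00237), in a comparison where 4 members were called (1 higher, 3 lower) against 19.4% of all tested genes (12.1% higher and 7.35% lower). That last call was lost without polyclonal non-Treg replicate B (-0.58, adjusted p = 0.0619) and with CD3 scaling (-0.12, adjusted p = 0.712). The CD3 scaling also gave a Cd96 Treg effect of -0.76 in monoclonal mice (adjusted p = 0.0135), which is -0.11 relative to the median gene. In polyclonal mice Cd96 was higher in Treg cells (0.57 ± 0.13, adjusted p = 0.0150). The polyclonal call was lost without polyclonal Treg replicate B (0.44, adjusted p = 0.0558), without polyclonal non-Treg replicate A (0.49, adjusted p = 0.238) or B (0.65, adjusted p = 0.0796), when the fit held just the libraries compared (adjusted p = 0.0817) and with CD3 scaling (0.53, adjusted p = 0.310). The difference of the Cd96 Treg effects was -0.65 ± 0.19 (adjusted p = 0.0455), and its call was lost when any library other than polyclonal Treg replicate A was left out (-0.73 to -0.52, adjusted p between 0.0604 and 0.231).

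The transcripts of TIGIT, CD96 and CD226, which share ligands, were also set against each other per kilobase of transcript, as a description without a test. Per kilobase, Tigit over Cd226 was 2.77 and 2.69 in monoclonal Treg against 1.20 and 1.12 in monoclonal non-Treg libraries. In polyclonal mice the ratio was 2.21 and 3.40 in Treg against 0.561 and 0.590 in non-Treg libraries. The ratio was thus above 1 in both Treg groups and in monoclonal non-Treg libraries, and below 1 in polyclonal non-Treg libraries. Cd96 over Cd226 was 1.48 and 1.49 in monoclonal Treg against 3.29 and 4.34 in monoclonal non-Treg libraries, while polyclonal libraries had 3.42 and 4.45 for Treg against 2.07 and 2.55 for non-Treg. Its order was reversed between the kinds of mice, with the Treg libraries lower in monoclonal and higher in polyclonal mice. Tigit over Cd96 was 1.87 and 1.81 in monoclonal Treg libraries, and between 0.231 and 0.765 in the other 6, so monoclonal Treg libraries were the ones with more Tigit than Cd96 per kilobase.

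**Figure D2:**
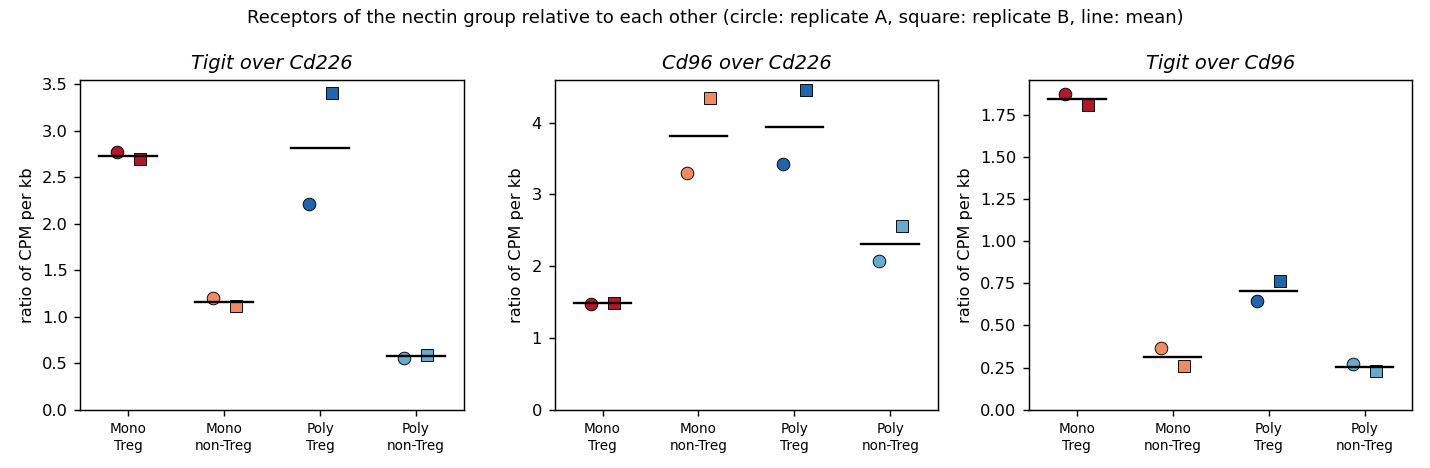
Ratios of CPM per kilobase among Tigit, Cd226 and Cd96 (vertical axes, linear, from 0) in each library by group (horizontal axis), with circles for replicate A, squares for replicate B and a line at the mean. Tigit over Cd226 is 2.21 to 3.40 in the 4 Treg libraries, above all 4 non-Treg libraries, and Tigit over Cd96 exceeds 1 in the 2 monoclonal Treg libraries.

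The summed NK cell markers differed between the kinds of mice beside these genes, though single markers did not all do so. The 11 markers summed to 68.0 and 84.5 CPM in libraries of monoclonal Treg cells and 85.5 and 80.1 CPM in monoclonal non-Treg libraries, and to 25.5 and 22.9 CPM in polyclonal Treg and 58.4 and 56.9 CPM in polyclonal non-Treg libraries. Of 10 NK markers tested, 7 were higher and 1 lower in monoclonal than in polyclonal Treg cells (12.1% and 12.1% of all tested genes). For non-Treg cells these counts were 2 higher and 1 lower (12.1% and 7.35% of all tested genes). The lower one was Eomes, at -1.25 (limma adjusted p = 0.0258) among Treg and -1.54 (adjusted p = 0.00902) among non-Treg cells, and Prf1, which encodes perforin, was at -0.34 (adjusted p = 0.491) and -0.16 (adjusted p = 0.806). Klra8 was at 0 in 3 of the 4 polyclonal libraries and Ncr1 in 1 of them, and each was above 0 in all 4 monoclonal libraries. The NK sum was lowest in polyclonal Treg libraries, where Cd96 was highest. What part NK cell RNA has in the values of Tigit, Cd226, Cd96 and Cd160 was not tested.

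Lag3, an inhibitory receptor for MHC class II, was lowest in monoclonal Treg libraries, and its 2 libraries there disagreed. It measured 12.6 and 2.82 CPM in monoclonal Treg against 31.8 and 23.3 CPM in monoclonal non-Treg libraries. In polyclonal mice it measured 29.1 and 43.7 CPM in Treg and 33.6 and 26.4 CPM in non-Treg libraries, which overlap. Both monoclonal Treg libraries were below the other 6. Lag3 was lower in Treg than in non-Treg cells of monoclonal mice (-1.97 ± 0.44, limma adjusted p = 0.00493) and lower than in polyclonal Treg cells (-2.35 ± 0.44, adjusted p = 0.00146). Both values rested in size on monoclonal Treg replicate B, without which they were -1.05 (adjusted p = 0.0341) and -1.43 (adjusted p = 0.00737). Leaving out monoclonal non-Treg replicate A gave a Treg effect of -1.75 (adjusted p = 0.0607). In polyclonal mice the Treg effect was 0.25 ± 0.44 (adjusted p = 0.862, 95% interval -0.69 to 1.20), and between non-Treg cells of the 2 kinds of mice Lag3 differed by -0.12 (adjusted p = 0.894, 95% interval -1.07 to 0.82, and 0.39 with CD3 scaling). The difference of the Treg effects was -2.22 ± 0.62 (adjusted p = 0.0392). That call was lost when any library other than monoclonal Treg replicate A was left out (-2.51 to -1.31, adjusted p between 0.0699 and 0.156), with a pseudocount of 0.25 (adjusted p = 0.0559), with no filter on low values (adjusted p = 0.145), and with edgeR on recovered reads (adjusted p = 0.112).

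Cd160, a receptor for HVEM, was a low transcript that was nearly missing from monoclonal Treg libraries. It had 0 reads and 8 reads (0.452 CPM) in the A and B libraries of monoclonal Treg cells, against 4.38 and 4.0 CPM in monoclonal non-Treg libraries. Polyclonal values were 10.9 and 7.20 CPM in Treg and 5.19 and 9.29 CPM in non-Treg libraries, which overlap. Cd160 was lower in Treg than in non-Treg cells of monoclonal mice (-2.11 ± 0.42, limma adjusted p = 0.00240) and than in polyclonal Treg cells (-3.03 ± 0.42, adjusted p = 0.000126). The sizes depend on the pseudocount, since 0.25 in place of 1 CPM gave a monoclonal Treg effect of -3.40, 4 CPM gave -0.96, and edgeR on recovered reads gave -4.20, and the gene was called with each. For the 2 Treg groups, 4 CPM gave -1.61 and edgeR -5.20, and both were called. The polyclonal Treg effect was 0.31 ± 0.42 (adjusted p = 0.810, 95% interval -0.60 to 1.21), and monoclonal minus polyclonal non-Treg cells gave -0.62 ± 0.42 (adjusted p = 0.362). The Treg effects differed by -2.41 ± 0.60 (adjusted p = 0.0221), which edgeR put at -4.49. The call ended when replicate A of monoclonal non-Treg cells was left out (-2.36, adjusted p = 0.0872) or its replicate B (-2.46, adjusted p = 0.0984), without polyclonal Treg replicate A (-2.14, adjusted p = 0.0619), without polyclonal non-Treg replicate A (-2.04, adjusted p = 0.147), and with no filter on low values (adjusted p = 0.0510).

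Havcr2, which encodes the inhibitory receptor TIM-3, had the widest span of the 7 genes and ran opposite to Tigit in monoclonal mice. It measured 61.9 and 41.3 CPM in monoclonal Treg against 180 and 237 CPM in monoclonal non-Treg libraries. Polyclonal values were 4.12 and 4.92 CPM in Treg and 2.72 and 4.52 CPM in non-Treg libraries, which overlap. All 4 monoclonal libraries stood above all 4 polyclonal ones. Havcr2 was lower in Treg than in non-Treg cells of monoclonal mice (-2.01 ± 0.28, limma adjusted p = 0.000156), with 0.28 ± 0.28 in polyclonal mice (adjusted p = 0.711, 95% interval -0.33 to 0.89) and a difference of Treg effects of -2.29 ± 0.40 (adjusted p = 0.00289). Monoclonal cells exceeded polyclonal cells by 3.23 ± 0.28 among Treg (adjusted p = 1.43e-06) and by 5.52 ± 0.28 among non-Treg cells (adjusted p = 3.90e-09).

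Markers of dendritic cells and macrophages followed the same order of groups as Havcr2 within the monoclonal mice. Beside Havcr2, Itgax (CD11c, an integrin typical of dendritic cells) stood at 245 and 241 CPM in libraries of monoclonal Treg cells, 961 and 1234 CPM in monoclonal non-Treg, 8.45 and 2.13 CPM in polyclonal Treg, and 10.4 and 10.9 CPM in polyclonal non-Treg libraries. Of the 9 dendritic cell markers, 7 were lower in Treg than in non-Treg cells of monoclonal mice (13.6% of all tested genes). Monoclonal against polyclonal, 7 were higher in Treg cells (12.1% of all tested genes) and 8 in non-Treg cells (12.1%). None was called the other way in these comparisons. All 9 were above 0 in 3 of the 4 monoclonal libraries, with Xcr1 at 0 in monoclonal non-Treg replicate B, while Batf3, Clec9a and Clec10a were at 0 in both polyclonal Treg libraries. Per kilobase, Havcr2 over Itgax was 0.372 and 0.252 in monoclonal Treg and 0.275 and 0.283 in monoclonal non-Treg libraries, groups that overlap, against 0.717 and 3.40 in Treg and 0.383 and 0.609 in non-Treg libraries of polyclonal mice. The summed macrophage and monocyte markers were 275 and 161 CPM in libraries of monoclonal Treg cells, 399 and 481 CPM in monoclonal non-Treg, 15.8 and 17.1 CPM in polyclonal Treg, and 22.9 and 22.6 CPM in polyclonal non-Treg libraries. What part RNA of such cells has in the Havcr2 values was not tested.

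**Figure D3:**
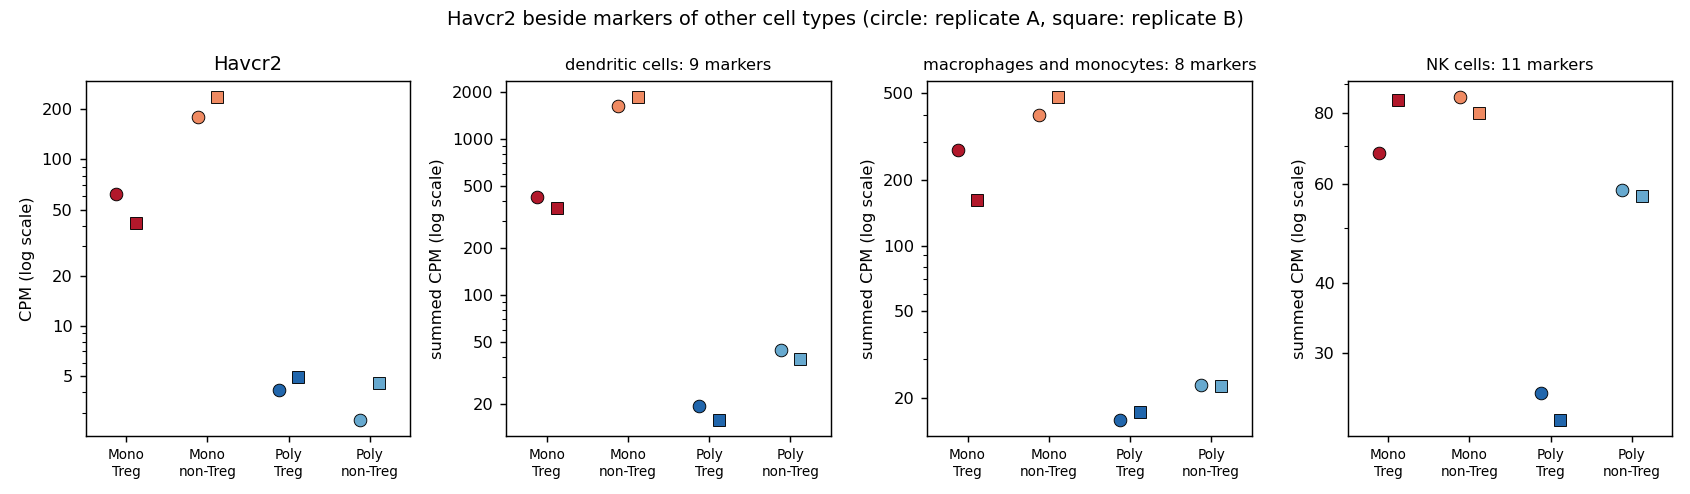
CPM of Havcr2 and the summed CPM of dendritic cell, macrophage and NK cell markers in each library (vertical axes, log scales) by group (horizontal axis), with circles for replicate A and squares for replicate B. Havcr2, the dendritic cell sum and the macrophage sum are each highest in the 2 monoclonal non-Treg libraries and lower in all 4 polyclonal libraries than in any monoclonal one.

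Cd200, the ligand of the inhibitory receptor CD200R1, was higher in Treg cells and lower in monoclonal mice. It measured 70.6 and 62.3 CPM in monoclonal Treg against 28.6 and 22.1 CPM in monoclonal non-Treg libraries. Polyclonal values were 129 and 140 CPM in Treg against 87.8 and 86.5 CPM in non-Treg libraries. No 2 groups overlapped, and the order from the highest was polyclonal Treg, polyclonal non-Treg, monoclonal Treg and monoclonal non-Treg. Cd200 was higher in Treg than in non-Treg cells of monoclonal mice (1.37 ± 0.17, limma adjusted p = 4.85e-05, and 0.70 with CD3 scaling, adjusted p = 0.0222) and lower than in polyclonal Treg cells (-1.01 ± 0.17, adjusted p = 0.000522). Among non-Treg cells it was lower in the monoclonal group (-1.76 ± 0.17, adjusted p = 2.15e-06). The polyclonal Treg effect was smaller (0.62 ± 0.17, adjusted p = 0.0335), and its call was lost without polyclonal Treg replicate B (0.56, adjusted p = 0.0990), without polyclonal non-Treg replicate A (0.63, adjusted p = 0.222) or B (0.61, adjusted p = 0.265), with no filter on low values (adjusted p = 0.0723) and with CD3 scaling (0.58, adjusted p = 0.246). The difference of the Treg effects was 0.75 ± 0.24 (adjusted p = 0.0645, 95% interval 0.24 to 1.25), and DESeq2 on recovered reads gave 0.73 (adjusted p = 0.0436).

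**Figure D4:**
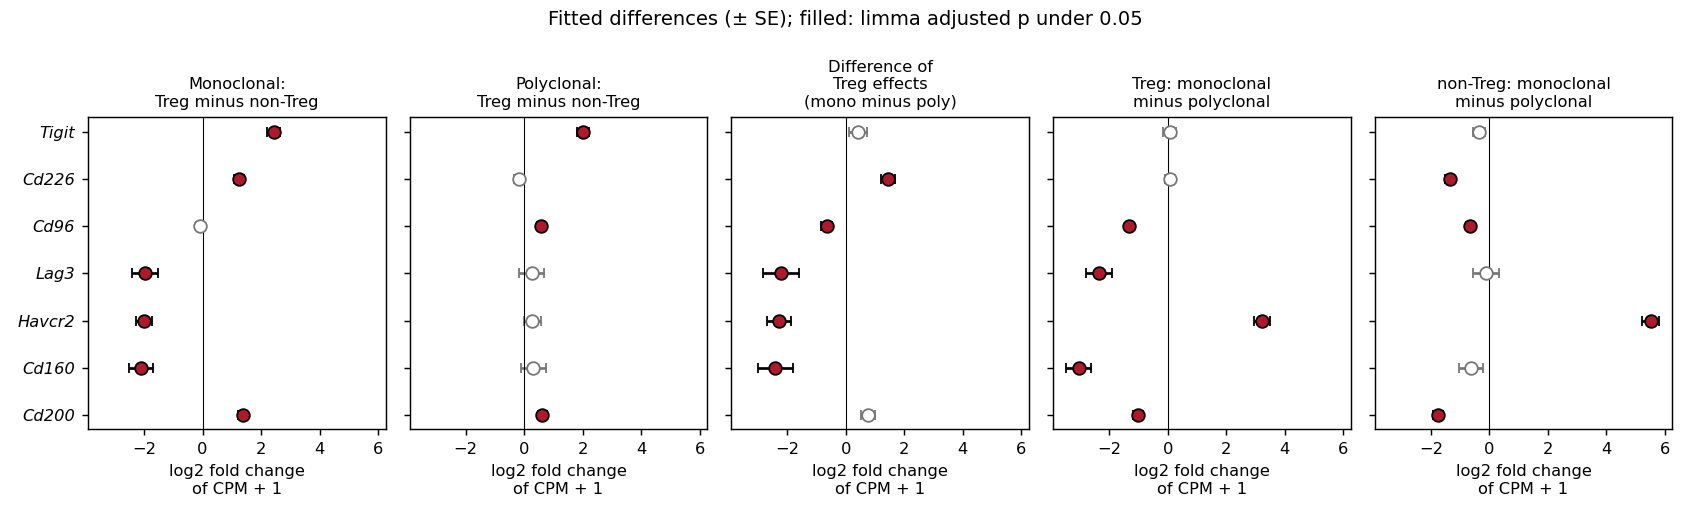
Log2 fold changes of CPM + 1 (horizontal axes) of the 7 genes (rows) in the 5 comparisons (panels), as points with SE bars, filled where the limma adjusted p is under 0.05. Tigit lies at 2.43 and 2.01 in the 2 Treg comparisons, and Lag3, Havcr2 and Cd160 lie near -2 in the monoclonal one and near 0 in the polyclonal one.

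Over the 7 genes, the median Treg effect was -0.08 in monoclonal mice and 0.31 in polyclonal mice, beside -0.02 and 0.00 over all tested genes. The median difference of the Treg effects was -0.65, beside -0.03 over all tested genes. Monoclonal minus polyclonal, the median was -1.01 in Treg cells and -0.62 in non-Treg cells, beside -0.03 and -0.07 over all tested genes. The genes therefore did not move as a block, with Tigit, Cd226 and Cd200 higher and Lag3, Havcr2 and Cd160 lower in Treg than in non-Treg cells of monoclonal mice.

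Levels of different genes were compared per kilobase. In monoclonal Treg cells Tigit had the highest level (94.0 CPM per kilobase), above Cd96 (51.1 CPM per kilobase), Cd226 (34.4 CPM per kilobase), Cd200 (28.4 CPM per kilobase) and Havcr2 (19.0 CPM per kilobase). In monoclonal non-Treg cells Havcr2 led with 76.8 CPM per kilobase, above Cd96 with 54.0 CPM per kilobase and Tigit with 16.7 CPM per kilobase. In polyclonal cells Cd96 led, with 127 CPM per kilobase in Treg and 85.5 CPM per kilobase in non-Treg cells, and Havcr2 came last, with 1.66 CPM per kilobase in Treg and 1.33 CPM per kilobase in non-Treg cells. Tigit was second in polyclonal Treg cells with 90.6 CPM per kilobase, and below Cd96, Cd200 and Cd226 in polyclonal non-Treg cells with 21.4 CPM per kilobase. Lag3 was at 3.87 CPM per kilobase in monoclonal Treg, 13.8 CPM per kilobase in monoclonal non-Treg, 18.3 CPM per kilobase in polyclonal Treg and 15.1 CPM per kilobase in polyclonal non-Treg cells.

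The ligands of the nectin group were then examined in the same libraries. Of 5 genes in the table, 3 were tested. In Treg against non-Treg cells 2 were lower in monoclonal mice (Pvrl1 and Pvrl4), beside 13.6% of all tested genes. In polyclonal mice 0 were called, beside 7.90% of all tested genes. Monoclonal against polyclonal, 2 were higher and 1 lower among Treg cells (12.1% and 12.1% of all tested genes). Among non-Treg cells 2 were higher and 0 lower (12.1% and 7.35% of all tested genes). Pvrl1, which encodes nectin-1, measured 12.9 and 14.8 CPM in monoclonal Treg against 52.4 and 54.2 CPM in monoclonal non-Treg libraries (-1.87 ± 0.38, limma adjusted p = 0.00276), and 2.39 to 6.14 CPM in the polyclonal libraries. Pvrl4, which encodes nectin-4, measured 4.27 and 6.38 CPM in libraries of monoclonal Treg cells and 12.3 and 14.6 CPM in monoclonal non-Treg libraries, and had 0 reads in all 4 polyclonal libraries. Its Treg effect in monoclonal mice was -1.20 ± 0.41 (adjusted p = 0.0453), a call lost in 8 of 14 alternatives, among them edgeR (adjusted p = 0.123) and DESeq2 (adjusted p = 0.114) on recovered reads, a pseudocount of 0.25 (adjusted p = 0.187), and leaving out monoclonal Treg replicate A (-0.96, adjusted p = 0.125), monoclonal non-Treg replicate A (-1.32, adjusted p = 0.141) or monoclonal non-Treg replicate B (-1.09, adjusted p = 0.274). Set against the mean floor of 3 reads per library, it was at least 29.2-fold higher in Treg cells of monoclonal than of polyclonal mice and at least 70.0-fold higher in non-Treg cells of monoclonal than of polyclonal mice. Pvr, which encodes the main ligand CD155, measured 39.0 and 19.3 CPM in libraries of monoclonal Treg cells, 38.3 and 31.9 CPM in monoclonal non-Treg, 65.1 and 41.5 CPM in polyclonal Treg, and 43.0 and 36.8 CPM in polyclonal non-Treg libraries. Its replicates spread widely within both Treg groups. Pvr was lower in Treg cells of monoclonal than of polyclonal mice (-0.90 ± 0.29, adjusted p = 0.0381), a call lost in 8 of 14 alternatives, among them edgeR on recovered reads (adjusted p = 0.0748), and leaving out monoclonal Treg replicate B (-0.41, adjusted p = 0.321) or polyclonal Treg replicate A (-0.58, adjusted p = 0.248).

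MHC class II genes, whose products bind LAG-3, followed the dendritic cell markers. Of 6 LAG-3 ligand genes in the table, 5 were tested. In Treg against non-Treg cells 3 were lower and 0 higher in monoclonal mice, beside 13.6% of all tested genes lower. In polyclonal mice 4 were lower and 0 higher, beside 3.28% lower. In monoclonal against polyclonal cells of either kind 4 were higher and 0 lower, beside 12.1% of all tested genes higher. H2-Aa measured 1441 and 1037 CPM in libraries of monoclonal Treg cells, 4219 and 4515 CPM in monoclonal non-Treg, 5.75 and 9.33 CPM in polyclonal Treg, and 36.9 and 44.2 CPM in polyclonal non-Treg libraries. H2-Ab1 and H2-Eb1 ran the same way, with Treg effects of -1.81 ± 0.23 (limma adjusted p = 5.99e-05) and -1.87 ± 0.19 (adjusted p = 8.85e-06) in monoclonal mice. Lgals3, which encodes galectin-3, measured 78.2 and 94.1 CPM in libraries of monoclonal Treg cells and 70.4 and 79.8 CPM in monoclonal non-Treg libraries, against 3.91 and 8.32 CPM in polyclonal Treg and 30.3 and 32.7 CPM in polyclonal non-Treg libraries. Lgals3 was lower in Treg than in non-Treg cells of polyclonal mice (-2.26 ± 0.26, adjusted p = 6.56e-05). For TIM-3, all 3 ligand genes in the table were tested, and Lgals9 (galectin-9) lay between 89.5 and 161 CPM in all libraries and Hmgb1 between 4.56 and 16.5 CPM. In the monoclonal Treg effect 1 of the 3 was called higher (Lgals9), beside 10.8% of all tested genes. In monoclonal against polyclonal Treg cells 1 was called higher (Hmgb1), beside 12.1% of all tested genes. In the other 3 comparisons 0 were called. Lgals9 was at 0.49 ± 0.16 (adjusted p = 0.0359), was called no longer without monoclonal Treg replicate A (0.43, adjusted p = 0.134) or B (0.55, adjusted p = 0.0760) or monoclonal non-Treg replicate B (0.31, adjusted p = 0.370), and turned to -0.19 with CD3 scaling. Hmgb1 was at 1.14 ± 0.36 (adjusted p = 0.0319), and was called no longer without monoclonal Treg replicate B (0.74, adjusted p = 0.174) or polyclonal Treg replicate A (1.25, adjusted p = 0.0610) or B (1.03, adjusted p = 0.0892).

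The 3 partner genes of Cd160 were all tested. In Treg against non-Treg cells, 2 were lower in monoclonal mice (Tnfrsf14 and Btla) and 2 in polyclonal mice (Tnfrsf14 and Tnfsf14), where Cd160 was not called. Monoclonal against polyclonal, 2 were lower among Treg cells (Tnfrsf14 and Btla) and all 3 among non-Treg cells, where Cd160 was not called. In these 4 comparisons 0 were higher, and 13.6%, 3.28%, 12.1% and 7.35% of all tested genes were lower, in the order given. Between non-Treg cells the call was lost in 9 (Btla), 5 (Tnfsf14) and 3 (Tnfrsf14) of 14 alternatives, and CD3 scaling gave Btla -0.0077. In the polyclonal Treg effect Tnfrsf14 lost its call in 6 and Tnfsf14 in 4 of 14 alternatives. Tnfrsf14, which encodes HVEM, measured 36.0 and 45.5 CPM in libraries of monoclonal Treg cells, 101 and 96.7 CPM in monoclonal non-Treg, 123 and 87.3 CPM in polyclonal Treg, and 175 and 159 CPM in polyclonal non-Treg libraries. Its Treg effect was -1.27 ± 0.18 in monoclonal mice (limma adjusted p = 0.000142) and -0.68 ± 0.18 in polyclonal mice (adjusted p = 0.0275). Btla, the other inhibitory receptor for HVEM, measured 87.7 and 62.9 CPM in libraries of monoclonal Treg cells, 178 and 164 CPM in monoclonal non-Treg, 226 and 174 CPM in polyclonal Treg, and 248 and 251 CPM in polyclonal non-Treg libraries. Its Treg effect in monoclonal mice was -1.19 ± 0.17 (adjusted p = 0.000144), and both genes were below all other libraries in the 2 monoclonal Treg libraries. Tnfsf14, which encodes LIGHT, lay between 9.73 and 30.6 CPM and was highest in polyclonal non-Treg libraries, with a Treg effect of -1.27 ± 0.32 in polyclonal mice (adjusted p = 0.0227).

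Among the receptors of Cd200, 2 of 4 genes were tested. Cd200r1, which encodes the inhibitory CD200 receptor, measured 176 and 155 CPM in libraries of monoclonal Treg cells, 37.0 and 25.7 CPM in monoclonal non-Treg, 31.0 and 26.5 CPM in polyclonal Treg, and 26.9 and 27.5 CPM in polyclonal non-Treg libraries. The 2 monoclonal Treg libraries stood above the other 6, with a Treg effect of 2.38 ± 0.20 (limma adjusted p = 1.95e-06) beside 0.07 ± 0.20 in polyclonal mice (adjusted p = 0.926). The difference of the Treg effects was 2.31 ± 0.28 (adjusted p = 0.000198). Cd200r1 thus ran higher in Treg cells of monoclonal than of polyclonal mice (2.49 ± 0.20, adjusted p = 6.17e-07), where Cd200 ran lower. Cd200r3 was at 7.36 CPM or below in every library. It was called lower in Treg than in non-Treg cells of polyclonal mice (-2.18, limma adjusted p = 0.0160), a call lost in 7 of 13 alternatives. Of the other 3 Tim family genes 1 was tested, Havcr1, which encodes TIM-1. Havcr1 measured 0 and 0.226 CPM in monoclonal Treg against 18.6 and 12.6 CPM in monoclonal non-Treg libraries (-3.88 ± 0.43, adjusted p = 2.23e-05, and -2.24 with a pseudocount of 4), and at most 1.03 CPM in the polyclonal libraries.

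Of 8 signalling and shedding partners tested, 1 was lower and 0 were higher in Treg than in non-Treg cells of each kind of mouse. Of all tested genes 13.6% were lower in monoclonal and 3.28% in polyclonal mice. The lower gene was Ptpn6 in monoclonal mice and Ptpn11 in polyclonal mice, where Ptpn6 was at -0.31 (limma adjusted p = 0.205). The Ptpn11 call was lost in 3 of 14 alternatives (-0.78 to -0.55 over all 14). Ptpn6, which encodes the phosphatase SHP-1, measured 230 and 190 CPM in monoclonal Treg against 507 and 510 CPM in monoclonal non-Treg libraries (-1.28 ± 0.13, limma adjusted p = 1.06e-05), and 233 to 319 CPM in the polyclonal libraries. Fyn, the kinase that acts with CD226 and TIM-3, measured 362 and 375 CPM in libraries of monoclonal Treg cells and 423 and 389 CPM in monoclonal non-Treg libraries, against 710 and 720 CPM in polyclonal Treg and 659 and 653 CPM in polyclonal non-Treg libraries. It was lower in Treg cells of monoclonal than of polyclonal mice (-0.96 ± 0.11, adjusted p = 1.84e-05). Ptpn11, which encodes SHP-2, was lower in Treg cells of monoclonal than of polyclonal mice (-0.68 ± 0.13, adjusted p = 0.00135), with 113 and 114 CPM in monoclonal Treg against 199 and 169 CPM in polyclonal Treg libraries. Inpp5d, which encodes the phosphatase SHIP-1 used by TIGIT, lay between 242 and 439 CPM in all libraries. It was called higher in non-Treg cells of monoclonal than of polyclonal mice, also in all 14 alternatives (0.62 to 1.27).

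Of 13 regulators of the co-inhibitory genes tested, 6 were higher and 2 lower in Treg than in non-Treg cells of monoclonal mice, beside 10.8% and 13.6% of all tested genes. In polyclonal mice 7 were higher and 1 lower, beside 4.63% and 3.28% of all tested genes. Prdm1, which encodes the effector-cell repressor BLIMP-1, measured 105 and 104 CPM in monoclonal Treg against 23.8 and 27.3 CPM in monoclonal non-Treg libraries (1.99 ± 0.18, limma adjusted p = 4.10e-06, and 1.32 with CD3 scaling). Polyclonal Treg libraries had 42.3 and 49.5 CPM of Prdm1 against 23.1 and 23.0 CPM in polyclonal non-Treg libraries. Maf, a factor that drives inhibitory receptors in T cells, measured 198 and 252 CPM in libraries of monoclonal Treg cells, 32.2 and 24.3 CPM in monoclonal non-Treg, 247 and 251 CPM in polyclonal Treg, and 163 and 164 CPM in polyclonal non-Treg libraries. The Maf Treg effect was 2.96 ± 0.16 in monoclonal mice (adjusted p = 3.68e-08), and the low group was monoclonal non-Treg, as for Cd226. Nr4a1, an early target of receptor signalling, measured 315 and 257 CPM in monoclonal Treg against 718 and 678 CPM in monoclonal non-Treg libraries, and 197 and 215 CPM in polyclonal Treg against 90.1 and 60.8 CPM in polyclonal non-Treg libraries. Its Treg effects had opposite signs, -1.29 ± 0.17 in monoclonal mice (adjusted p = 7.80e-05) and 1.46 ± 0.17 in polyclonal mice (adjusted p = 5.48e-05), and differed by -2.75 ± 0.24 (adjusted p = 1.88e-05). Nr4a3, of the same family, was nearly missing from monoclonal Treg libraries (0.197 and 0.0565 CPM), against 5.10 and 5.61 CPM in monoclonal non-Treg libraries, and measured 20.4 and 27.8 CPM in polyclonal Treg against 9.81 and 9.49 CPM in polyclonal non-Treg libraries.

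Of 13 genes tested from a list of other inhibitory receptors, 6 were higher and 4 lower in Treg than in non-Treg cells of monoclonal mice. Of all tested genes 10.8% were higher and 13.6% lower there. In polyclonal mice 6 were higher and 1 lower, beside 4.63% and 3.28% of all tested genes. The list also holds Nt5e and Entpd1, which encode surface enzymes, and Btla, counted above with the partners of Cd160. Ctla4, whose product takes costimulatory ligands off other cells, stood at 676 and 760 CPM in monoclonal Treg against 106 and 86.2 CPM in monoclonal non-Treg libraries, and 632 and 591 CPM in polyclonal Treg against 109 and 106 CPM in polyclonal non-Treg libraries. Like Tigit, Ctla4 was higher in Treg cells of both kinds of mice (2.90 ± 0.13, limma adjusted p = 7.93e-09, and 2.50 ± 0.13, adjusted p = 3.37e-08). Klrg1, a receptor of terminal effector cells, measured 552 and 550 CPM in monoclonal Treg against 87.2 and 45.0 CPM in monoclonal non-Treg libraries, and 26.6 and 37.6 CPM in polyclonal Treg against 2.78 and 1.74 CPM in polyclonal non-Treg libraries. Cd244 and Cd72, receptors known from NK cells and from B cells, were lower in Treg than in non-Treg cells of monoclonal mice, as Havcr2 was. Cd244 measured 36.6 and 29.7 CPM in monoclonal Treg against 106 and 112 CPM in monoclonal non-Treg libraries (-1.69 ± 0.26, adjusted p = 0.000272), and Cd72 had 15.4 and 14.7 CPM in monoclonal Treg against 65.3 and 48.3 CPM in monoclonal non-Treg libraries (-1.83 ± 0.30, adjusted p = 0.000538). Neither exceeded 6.54 CPM in any polyclonal library. The 7 B cell markers summed to 66.2 and 45.0 CPM in libraries of monoclonal Treg cells and 230 and 267 CPM in monoclonal non-Treg libraries, but Cd22 alone gave 53.0 and 42.1 CPM in monoclonal Treg and 202 and 245 CPM in monoclonal non-Treg libraries. Cd79b differed by -0.50 (adjusted p = 0.469), and Ms4a1 and Pax5 were at 0.645 CPM or below in every library. The part of B cell RNA in these values was not tested.

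**Figure D5:**
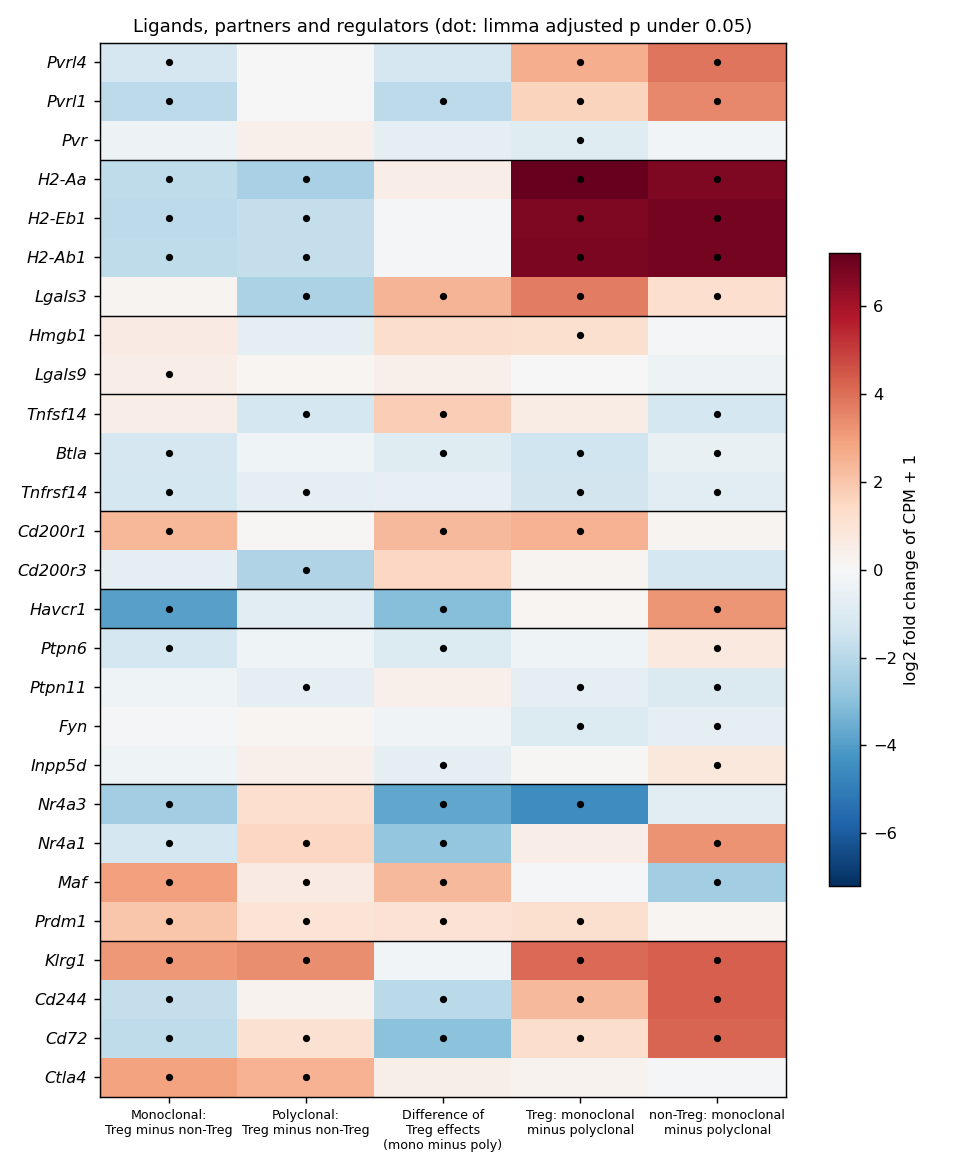
Log2 fold changes of CPM + 1 (colour, red higher and blue lower in the first-named group) of 27 ligands, partners, regulators and other inhibitory receptors (rows, lists separated by lines) in the 5 comparisons (columns), with a dot where the limma adjusted p is under 0.05. The MHC class II genes reach 7.19 between monoclonal and polyclonal Treg cells, and Nr4a1 has opposite signs in the 2 Treg comparisons.

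The genes most like each member over the 8 libraries were found by Pearson correlation of log2(CPM + 1) among 10161 genes, as a description in which all genes share the same 8 libraries and 4 groups. Ctla4 (0.988), Bcl2l1 (0.985) and Nrp1 (0.983) were most like Tigit. Gosr1 (0.992), Map3k12 (0.990) and Tial1 (0.976) were most like Cd226. For Cd96 they were Slc7a10 (0.991), Hdac7 (0.985) and Ube4b (0.981), and for Lag3 they were Rrp12 (0.983), Fam109a (0.979) and Fasn (0.978). For Havcr2 they were Lrrk2 (0.997), Unc93b1 (0.997) and Tgm2 (0.996). For Cd160 they were Zfp446 (0.988), AW011738 (0.987) and Armcx2 (0.978), and for Cd200 they were Nek7 (0.993), Zan (0.990) and Ccng1 (0.988). No member was among the 3 genes most like another member. Lrrk2 shows the Havcr2 pattern in CPM, with means of 43.8 in monoclonal Treg, 211 in monoclonal non-Treg, 3.08 in polyclonal Treg and 3.36 in polyclonal non-Treg libraries.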

How the data were processed

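Libraries were made from poly-dT selected mRNA with strand information kept and sequenced as single-end 50 bp reads, per the labels' protocols. The submitters' processing notes name, without a role for each, STAR 2.4.1a, HOMER 4.7, Trimmomatic 0.33, FastQC 0.10.1, CASAVA 1.8.2, edgeR and the build mm9. The authors deposited CPM values per gene, which sum to 1000000 in each library, and dividing by the value of 1 read gave a whole number for 100% of them (tolerance 0.01 read), which recovered the read counts. Columns left unused numbered 0. The sources used here do not say whether counting used strand.

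Tests used limma 3.58.1 (R 4.3.3) with trend and robust spread, applied to log2(CPM + 1) of the 12881 genes that reached 1 CPM in 2 or more of the 8 libraries, with 4 group means, 2-sided p and Benjamini-Hochberg adjustment at 0.05. The pseudocount understates changes of low genes. Intervals of fold changes are 95% intervals, and floors of 3 reads cover counting error only. The 5 comparisons share libraries. The alternatives were pseudocounts of 0.25 and 4, no filter, a filter of 5 CPM, TMM and CD3 scaling, edgeR 4.0.16 and DESeq2 1.42.0 on recovered reads, a replicate block, a fit of the compared libraries, and leaving out each library. For pathway genes, alternatives in comparisons other than the one a gene was named for were chosen after seeing the data. Fits were checked on simulated data. The main fit did not pair samples by replicate letter. The correlation of A minus B between groups ran from -0.0930 to 0.0969. It was highest between Treg and non-Treg samples of monoclonal mice (0.0969) and of polyclonal mice (0.0752). These values cannot show whether samples of 1 letter shared a mouse.

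The members and gene lists were chosen with earlier results of these data known. All members are named, and from each of 9 pathway lists at most 4 called genes with the largest change. Promoter sequences are from RefSeq on GRCm38.p6 and were not joined to mm9 positions.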

Additional observations from a re-analysis of the deposited data

Results flagged for a closer look

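Each gene below had Treg effects, Treg minus non-Treg, that differed between monoclonal and polyclonal mice by limma's test of the difference itself. Among the 7 genes the difference was 1.43 for Cd226 (adjusted p = 0.00168), -0.65 for Cd96 (0.0455), -2.22 for Lag3 (0.0392), -2.29 for Havcr2 (0.00289) and -2.41 for Cd160 (0.0221), as adjusted p in brackets. The calls of Cd96, Lag3 and Cd160 were each lost when single libraries were left out, as given with those genes.

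Among ligands and partners the difference was -1.89 for Pvrl1, 2.46 for Lgals3, 1.75 for Tnfsf14, -0.87 for Btla, 2.31 for Cd200r1 and -3.05 for Havcr1. Among signalling genes it was -0.97 for Ptpn6 and -0.66 for Inpp5d. Among regulators it was -3.72 for Nr4a3, -2.75 for Nr4a1, 2.35 for Maf and 1.03 for Prdm1, and among other inhibitory receptors it was -1.94 for Cd244 and -2.94 for Cd72. Nr4a1 was called with opposite signs in the 2 kinds of mice. Cd72 was also called with opposite signs, -1.83 in monoclonal and 1.11 in polyclonal mice, and its polyclonal call was lost without any 1 of the 4 polyclonal libraries (1.01 to 1.21, adjusted p between 0.0627 and 0.256).

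Leaving out 1 library ended several of these calls of a difference. For Pvrl1 any library but polyclonal Treg replicate A or polyclonal non-Treg replicate A did so (-1.98 to -1.35, adjusted p between 0.0725 and 0.219). For Btla (-0.92 to -0.63, adjusted p between 0.0618 and 0.138) and Tnfsf14 (1.29 to 1.87, adjusted p between 0.0534 and 0.125) any library but monoclonal Treg replicate A or polyclonal Treg replicate B did so. Prdm1 lost its call without any 1 of the 4 non-Treg libraries (0.93 to 1.12, adjusted p between 0.0680 and 0.101). Inpp5d lost it without monoclonal Treg replicate B, monoclonal non-Treg replicate B or either polyclonal non-Treg library (-0.68 to -0.55, adjusted p between 0.0584 and 0.170). Havcr1 lost it without the A library of monoclonal non-Treg (-2.78, adjusted p = 0.0587) or of polyclonal non-Treg cells (-2.86, adjusted p = 0.0509), and edgeR on recovered reads gave -0.31 (adjusted p = 0.817). Cd244 lost it without monoclonal non-Treg replicate B (-1.90, adjusted p = 0.0533).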

How the results depend on the processing

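Of 511 alternative values of the 7 genes, 459 kept direction and side of the threshold, 39 lost a call, 2 gained one and 11 changed sign, uncalled before and after. CD3 scaling, which shifts the median of all genes by -0.64, -0.03, -0.60, -0.10 and 0.50 in the 5 comparisons (monoclonal Treg effect, polyclonal Treg effect, their difference, monoclonal against polyclonal Treg, and monoclonal against polyclonal non-Treg), gave 6009, 524, 1933, 1893 and 2924 called genes, against 3143, 1018, 1185, 3116 and 2505. Its calls were 369 higher and 5640 lower in the monoclonal Treg effect (1396 and 1747 without it), 80 and 1853 in the difference (469 and 716), and 2798 and 126 between non-Treg cells (1558 and 947). It left 1 of the 7 genes called in the polyclonal Treg effect, and reversed the Lgals9 monoclonal Treg effect to -0.19 (adjusted p = 0.471). No filter on low values gave 756 called genes and 2 of the 7 in the difference, and a pseudocount of 0.25 gave 3 of the 7. A fit of only the libraries compared gave 673 genes in the polyclonal Treg effect, 1721 between Treg and 4413 between non-Treg cells. Causes of these shifts were not tested.

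Leaving out 1 library gave 1300 to 2991 called genes in the monoclonal Treg effect, 435 to 1236 in the polyclonal one, 395 to 1663 in their difference, 2416 to 3577 between Treg and 1370 to 1625 between non-Treg cells. Of the 7 genes it left 5 to 6, 1 to 3, 2 to 4, 5 to 5 and 3 to 4 called. With the replicate block, 3032, 945, 1094, 2969 and 2393 genes were called, and no call of the 7 genes changed. With the block Pvrl4 was no longer called in the monoclonal Treg effect (adjusted p = 0.0536) nor Pvrl1 in the difference (adjusted p = 0.0558). A lone library was taken to vary like the other groups. Cd160 at 0 and 8 reads is near the limit of depth.

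Of 1966 alternative values of the named pathway genes, 39 changed sign, and all but that of Lgals9 above were uncalled before and after. CD3 scaling did so in the monoclonal Treg effect for Lgals3 (-0.49), Hmgb1 (-0.041) and Tnfsf14 (-0.17), and in the polyclonal one for Pvrl1 (-0.026, with -0.041 by edgeR and -0.048 by DESeq2). In the difference it did so for Tigit (-0.20), H2-Aa (-0.18), Lgals9 (-0.27), Ptpn11 (-0.27) and Ctla4 (-0.25), and a pseudocount of 4 for Klrg1 (0.54). Between Treg cells it did so for Tigit (-0.039), Cd226 (-0.032), Lgals9 (-0.10) and Inpp5d (-0.038), and between non-Treg cells for Tigit (0.16), Lag3 (0.39), Pvr (0.34), Hmgb1 (0.39), Lgals9 (0.17) and Ctla4 (0.36). Leaving out 1 library gave ranges that cross 0 in the monoclonal Treg effect for Pvr (-0.83 to 0.15), and in the polyclonal one for Lag3 (-0.032 to 0.54), Havcr2 (-0.0035 to 0.56), Cd160 (-0.061 to 0.67), Pvrl1 (-0.52 to 0.56), Lgals9 (-0.060 to 0.30) and Cd200r1 (-0.035 to 0.18). It did so in the difference for H2-Eb1 (-0.42 to 0.11), H2-Ab1 (-0.48 to 0.25) and Klrg1 (-0.69 to 0.25), between Treg cells for Tigit (-0.17 to 0.32), Lgals9 (-0.17 to 0.19), Cd200r3 (-0.34 to 0.78) and Maf (-0.33 to 0.016), and between non-Treg cells for Lag3 (-0.34 to 0.090), Hmgb1 (-0.25 to 0.061) and Cd200r1 (-0.080 to 0.43).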

Other observations

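Tigit, Cd200 and Cd96 lie within 2.47 Mb of chromosome 16 (chr16:43648974-46120361 on mm9), an interval that also holds Btla and the Cd200r genes. The deposited table lists 35 genes there, and 22 of them were tested, or 19 without these 3 genes. Of the 19, 1 was higher and 2 lower in the monoclonal Treg effect (24.4% of all tested genes were called), and 0 were higher and 3 lower in the polyclonal one (7.90% of all). Monoclonal against polyclonal, 1 was higher and 5 lower among Treg cells (24.2% of all), and 0 were higher and 4 lower among non-Treg cells (19.4% of all). Sidt1, a gene of this interval chosen after its values were seen, was lower in Treg cells of both kinds of mice (-0.99, limma adjusted p = 8.16e-05, and -0.83, adjusted p = 0.000710).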
